A study of Homo sapiens with 4 samples.

Results

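A set of 9 genes of vitamin A (retinoid) uptake, binding and signalling were followed through RNA sequencing of DLD1, a human colorectal cancer cell line, and of 3 lines derived from it. They are STRA6, CRABP2, ALDH1A1, ALDH1A3, DHRS3, RARA, RARG, RXRA and CYP26A1, taken by symbol from a table of 57746 genes, and all 9 were found there. The members were chosen by their RPKM in the 4 lines, which was known when they were picked, so those values are given as a description and carry no test. SA was grown from colonies of DLD1 in soft agar and SPH from colonospheres, and both are labelled mesenchymal. METS was recovered from a metastasis that a DLD1 xenograft formed in the lung, and it is labelled epithelial, as is the parental line DLD1. All lines were kept in the same serum-containing medium, with no retinoid treatment named. Each line is 1 library, so the spread between cultures of a line is unknown, and whether a line is a single clone is not stated.

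Levels are in RPKM, a read number corrected for gene length and library size. At 1 RPKM a gene of 1 kb held an estimated 48.5 reads in SA, 52.8 in SPH, 50.2 in METS and 53.9 in DLD1, from the step size of low values. The 95% intervals below are exact Poisson intervals of the reads estimated in this way. They cover counting error only, and they are approximate because the authors' gene lengths are not known. Differences are of log2(RPKM + 1), a scale on which low genes change less than their RPKM do. Over all genes entering a comparison, the median difference lay between -0.03 and 0.04. The 6 colon epithelium markers were above 0 in every line, and their sum was lower in the lines labelled mesenchymal, at 1391 RPKM in SA and 1458 in SPH, against 2345 in METS and 1858 in DLD1. The keratin KRT8 stood at 565, 587, 1084 and 817 RPKM in SA, SPH, METS and DLD1, KRT18 at 476, 504, 865 and 680, and CDH1 at 94.5, 97.3, 103 and 115. EPCAM (222, 231, 263 and 212 RPKM in the same order) and CDX2 (31.4, 36.0, 27.6 and 31.9) did not separate the classes, and VIL1 stayed between 1.39 and 3.35. The part of this difference in the results below was not tested. The summed level of 5 leukocyte markers did not exceed 0.40 RPKM in any line, that of 3 measured endothelial markers 0.26 and that of 6 fibroblast markers 0.49. Of 4 lung epithelial markers only AGER was above 0.1 RPKM, at 0.87 to 1.29 RPKM in the 4 lines.

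Retinoid signalling starts with retinol, which circulates bound to RBP4 and is taken into cells through STRA6. Inside the cell retinol is oxidised to retinaldehyde, and the ALDH1A enzymes oxidise retinaldehyde to retinoic acid, while DHRS3 turns retinaldehyde back into retinol. CRABP2 carries retinoic acid to the nucleus, where heterodimers of RAR and RXR receptors bind paired half-sites in DNA, and CYP26 enzymes break retinoic acid down. In the intestine the pathway is known for shaping epithelial differentiation, and CYP26A1 and DHRS3 are among the classic genes that retinoic acid induces.

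STRA6, the membrane receptor for retinol bound to RBP4, was detected in both mesenchymal lines and almost absent from the epithelial ones. It stood at 1.39 RPKM in SA and 1.29 in SPH, against a listed 0.00 in METS and 0.01 in DLD1. By the estimate, those values rest on about 518 reads in SA and 524 in SPH, against 0 in METS and 4 in DLD1. SA and SPH lay close together, with counting intervals of 1.27 to 1.51 and 1.18 to 1.41 RPKM, and far above the other two lines. The difference from DLD1 was 1.24 in SA, 1.18 in SPH and -0.01 in METS (log2 scale). In bulk RNA, more cells that express a gene and more RNA per cell cannot be told apart, here and for every gene below. CCDC33, on the opposite strand, shares 540 of the 7690 exon bases of STRA6, but it did not exceed 0.05 RPKM in any line.

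CRABP2, the cytoplasmic carrier that delivers retinoic acid to RAR, had the widest range of the 9 genes in log2(RPKM + 1). That rank depends on the pseudocount. At 0.1 the difference from DLD1 was 4.47 for ALDH1A1 in METS and 3.76 for STRA6 in SA. For CRABP2, whose range lies on both sides of DLD1, it was -2.34 in METS and 1.09 in SPH. Its level was 19.7 RPKM in SA, 20.5 in SPH and 1.81 in METS, against 9.59 in DLD1. Both mesenchymal lines thus stood slightly above 2 times the parental RPKM, and METS was far below every other line. Relative to DLD1 the ratio of RPKM was 2.05 in SA, 2.13 in SPH and 0.189 in METS. The log2 differences from DLD1 were 0.97 in SA, 1.02 in SPH and -1.91 in METS. Counting intervals ran from 18.5 to 20.9 RPKM in SA, 19.3 to 21.7 in SPH, 1.47 to 2.20 in METS and 8.82 to 10.4 in DLD1. Those of SA and SPH overlapped, and those of METS and DLD1 overlapped with no other line. Between METS and SPH, the ends of the range, the ratio was 0.0884. On the 2-fold threshold used here, SPH lay just past it and SA just short of it.

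**Figure D1:**
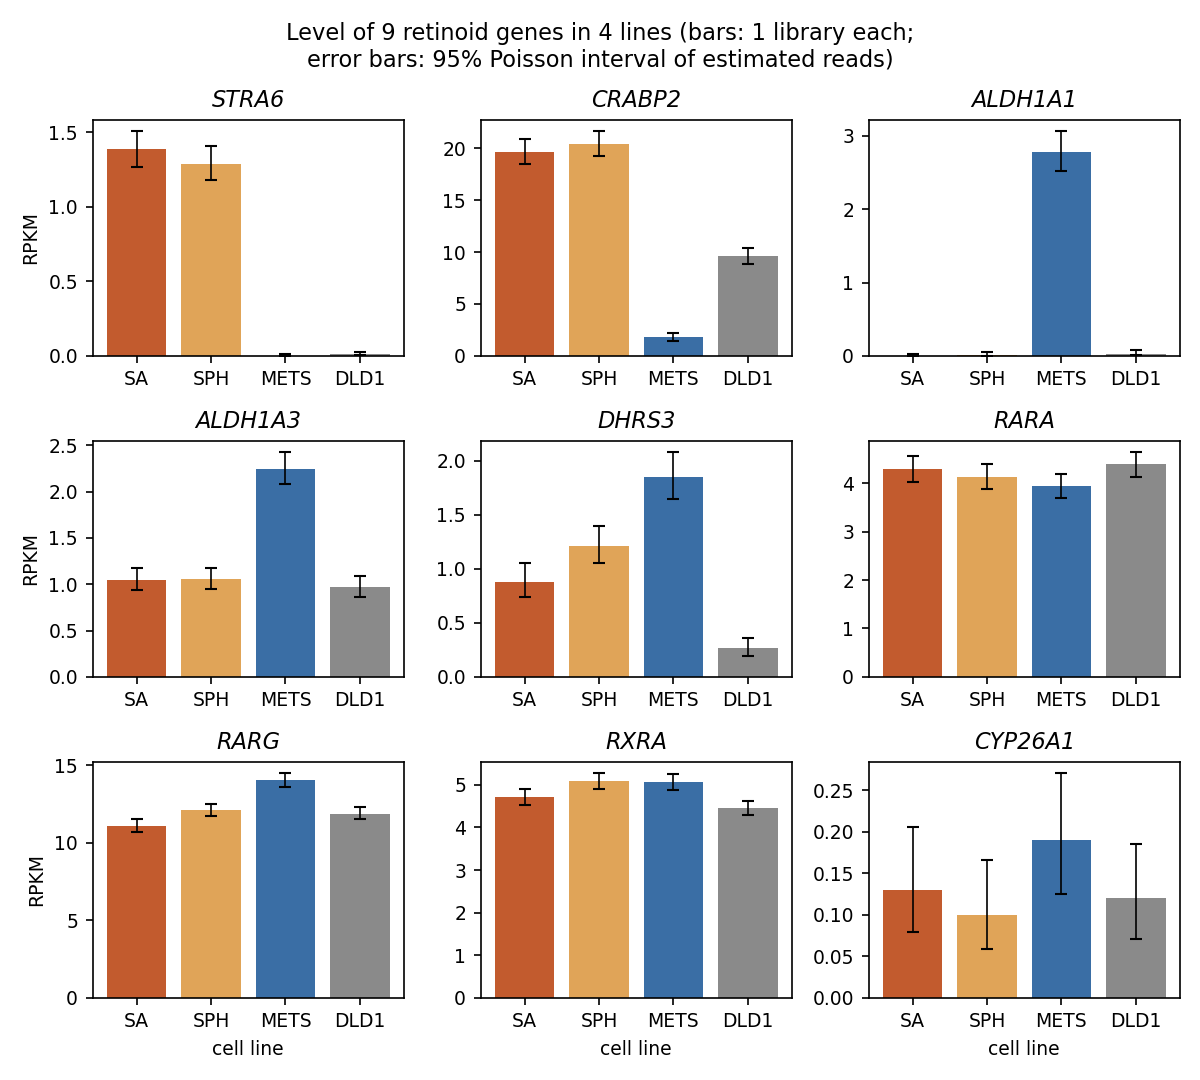
Level of the 9 genes in RPKM (vertical axis, from 0) in SA, SPH, METS and DLD1 (horizontal axis). Each bar is 1 library and each error bar the 95% Poisson interval of the estimated reads. STRA6 is seen in SA and SPH (1.39 and 1.29 RPKM), ALDH1A1 in METS (2.78 RPKM), CRABP2 is lowest in METS (1.81 RPKM), and the bars of RARA, RARG and RXRA are nearly level.

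All 9 genes were matched to RefSeq promoter windows of build GRCh38.p14, with 19 windows in all because several genes start at more than 1 place. Each window holds 300 bases, from 250 before the start to 50 after it. They were searched on both strands for the half-site of retinoid receptors in 4 forms, the form AGGTCA, the form AGTTCA, the form GGGTCA and the form GGTTCA, and for direct repeats of it with spacers of 1, 2 or 5 bases (DR1, DR2, DR5), which contain half-sites. They were also searched for the TATA box TATAAA. The windows of STRA6 and CRABP2 are shown because both genes were high in SA and SPH, and that of CYP26A1 because it holds the only direct repeat found. STRA6 has 5 windows, of which the first is shown, and the second of 2 is shown for CYP26A1. Capitals mark half-sites, the direct repeat with its spacer, and the TATA box.

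CYP26A1, chr10:93073643-93073942, plus strand: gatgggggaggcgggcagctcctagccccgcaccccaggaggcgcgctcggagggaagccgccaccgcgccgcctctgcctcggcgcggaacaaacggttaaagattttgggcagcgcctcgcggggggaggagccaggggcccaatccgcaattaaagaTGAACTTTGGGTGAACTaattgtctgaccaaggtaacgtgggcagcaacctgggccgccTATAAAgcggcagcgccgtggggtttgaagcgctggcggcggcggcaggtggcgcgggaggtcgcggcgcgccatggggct
CRABP2, chr1:156705735-156706034, minus strand: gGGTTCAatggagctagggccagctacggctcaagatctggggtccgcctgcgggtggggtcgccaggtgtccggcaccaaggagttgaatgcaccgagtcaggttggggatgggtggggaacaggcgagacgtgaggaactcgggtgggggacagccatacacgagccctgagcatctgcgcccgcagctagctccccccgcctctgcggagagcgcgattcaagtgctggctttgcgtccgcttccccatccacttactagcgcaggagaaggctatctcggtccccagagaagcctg
STRA6, chr15:74212210-74212509, minus strand: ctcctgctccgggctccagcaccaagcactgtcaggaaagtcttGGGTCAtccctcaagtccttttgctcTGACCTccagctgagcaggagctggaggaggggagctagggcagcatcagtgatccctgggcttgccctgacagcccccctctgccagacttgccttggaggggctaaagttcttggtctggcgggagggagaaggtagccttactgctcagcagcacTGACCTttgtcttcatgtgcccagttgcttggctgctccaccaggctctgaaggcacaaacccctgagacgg

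The CYP26A1 window held a DR5 on the minus strand, from base -90 to base -74 relative to the start, and a TATA box from base -31 to -26. A DR5 was present in 31 of 35116 windows of all genes (0.0883%), a DR1 in 0.131% and a DR2 in 0.0399%. No DR1, DR2 or DR5 was in the other 18 windows, which says only that these letters are not there. The CRABP2 window held 1 half-site and the first STRA6 window 3, and 38.6% of all windows held at least 1. Of the STRA6 windows not shown, window 3 held 1 half-site and windows 2, 4 and 5 held 0. The first STRA6 window had 3 CpG dinucleotides, the CRABP2 window 20 and the CYP26A1 window shown 32, against a median of 14 over all windows. The ALDH1A1 window had 7 and that of ALDH1A3 46.

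ALDH1A1 and ALDH1A3, which make retinoic acid from retinaldehyde, were both highest in METS. ALDH1A1, also widely used as a marker of stem-like tumour cells, is listed at 0.00 RPKM in SA and stood at 0.01 in SPH and 2.78 in METS, against 0.03 in DLD1. Its level in METS rests on about 398 reads (interval 2.52 to 3.07 RPKM), against about 5 reads in DLD1, 2 in SPH and 0 in SA. METS alone had a clear level of ALDH1A1, and the other 3 lines could not be ranked at this depth. The log2 difference from DLD1 was -0.04 in SA, -0.03 in SPH and 1.88 in METS.

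ALDH1A3 was present in all 4 lines, at 1.05 RPKM in SA, 1.06 in SPH and 2.25 in METS, against 0.97 in DLD1. The level in METS was 2.32 times that of DLD1 (log2 difference 0.72), with an interval of 2.08 to 2.43 RPKM. The intervals of SA, SPH and DLD1 overlapped, within 0.864 and 1.18 RPKM. An antisense gene, AC015712.2, covers 1585 of the 5772 exon bases of ALDH1A3 in GENCODE 29, and without known strandedness its reads cannot be told apart from those of ALDH1A3.

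The remaining member of the enzyme family, ALDH1A2, did not exceed 0.04 RPKM. Together the ALDH1A transcripts summed to 1.08 RPKM in SA, 1.11 in SPH and 5.04 in METS, against 1.03 in DLD1. ALDH1A1 made up 55.2% of that sum in METS and 2.91% in DLD1, and ALDH1A3 made up 44.6% in METS and 94.2% in DLD1. In SA and SPH ALDH1A3 made up 97.2% and 95.5%. METS therefore differed from the other lines in the sum and in the share of ALDH1A1. Which transcript was most abundant in METS depends on gene lengths, and those of the authors are not known. By the estimate ALDH1A3 had about 652 reads in METS over 5772 exon bases, and ALDH1A1 about 398 over 2849.

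DHRS3, the reductase that returns retinaldehyde to retinol, was higher than in DLD1 in all 3 derived lines. It stood at 0.88 RPKM in SA, 1.21 in SPH and 1.85 in METS, against 0.27 in DLD1. The ratio to DLD1 was 3.26 in SA, 4.48 in SPH and 6.85 in METS (log2 differences 0.57, 0.80 and 1.17). The interval of DLD1, 0.195 to 0.361 RPKM, overlapped with none of the others, and that of METS, 1.64 to 2.08, lay above that of SPH, 1.05 to 1.39. SA, at 0.738 to 1.05 RPKM, adjoined SPH. Of the 9 genes, DHRS3 was the only one whose counting intervals in all 3 derived lines lay above that of DLD1.

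The receptors were nearly level across the lines. RARA stood at 4.29 RPKM in SA, 4.13 in SPH and 3.94 in METS, against 4.39 in DLD1, and the 4 counting intervals overlapped within 3.69 to 4.65 RPKM. RXRA, the common partner of many nuclear receptors, stood at 4.71 RPKM in SA, 5.09 in SPH and 5.07 in METS, against 4.45 in DLD1. SPH and METS could not be told apart, and the interval of DLD1 (4.28 to 4.62 RPKM) overlapped that of SA (4.53 to 4.90). The intervals of SPH (4.91 to 5.28 RPKM) and METS (4.88 to 5.26) lay above that of DLD1. RARG, a receptor known best from skin, stood at 11.1 RPKM in SA, 12.1 in SPH and 14.03 in METS, against 11.9 in DLD1. Its interval in METS, 13.6 to 14.5 RPKM, lay above those of the other lines, with a log2 difference from DLD1 of 0.22. No receptor member differed from DLD1 by more than that in any derived line.

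As a share of the summed RAR level in RPKM, RARG made up 72.1% in SA, 74.4% in SPH and 77.9% in METS, against 72.9% in DLD1. RARB, itself a retinoic acid target in many epithelia, did not exceed 0.04 RPKM and made up at most 0.246% of the sum. RXRB had the highest RPKM of the RXR genes, at 10.4 in SA, 12.2 in SPH and 10.9 in METS, against 11.5 in DLD1. RXRG did not exceed 0.01 RPKM. All 4 lines carried the same order in RPKM, RARG over RARA and RXRB over RXRA, with RARB and RXRG near the limit of detection. The order between genes depends on gene lengths, and those of the authors are not known. The antisense gene RARA-AS1 overlaps 556 of the 4731 exon bases of RARA.

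CYP26A1, the retinoic acid hydroxylase whose promoter carries the DR5 printed above, was low throughout. It stood at 0.13 RPKM in SA, 0.10 in SPH and 0.19 in METS, against 0.12 in DLD1. These values rest on about 19, 16, 28 and 19 reads, and the 4 counting intervals overlapped, from 0.0583 to 0.271 RPKM over all lines. AL358613.3, on the same strand, shares 750 of the 2972 exon bases of CYP26A1 in GENCODE 29, and reads from the shared bases cannot be assigned to either gene. A difference between the lines was not detectable at this depth. The related enzyme CYP26B1 was far more abundant, at 5.48 RPKM in SA, 5.68 in SPH and 4.86 in METS, against 4.89 in DLD1. Per length, CYP26B1 was 42.2 times CYP26A1 in SA, 56.8 times in SPH and 25.6 times in METS, against 40.8 times in DLD1. CYP26B1 did not pass the class test (log2 difference 0.16 ± 0.11, SE, adjusted p = 0.76, limma-trend).

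**Figure D2:**
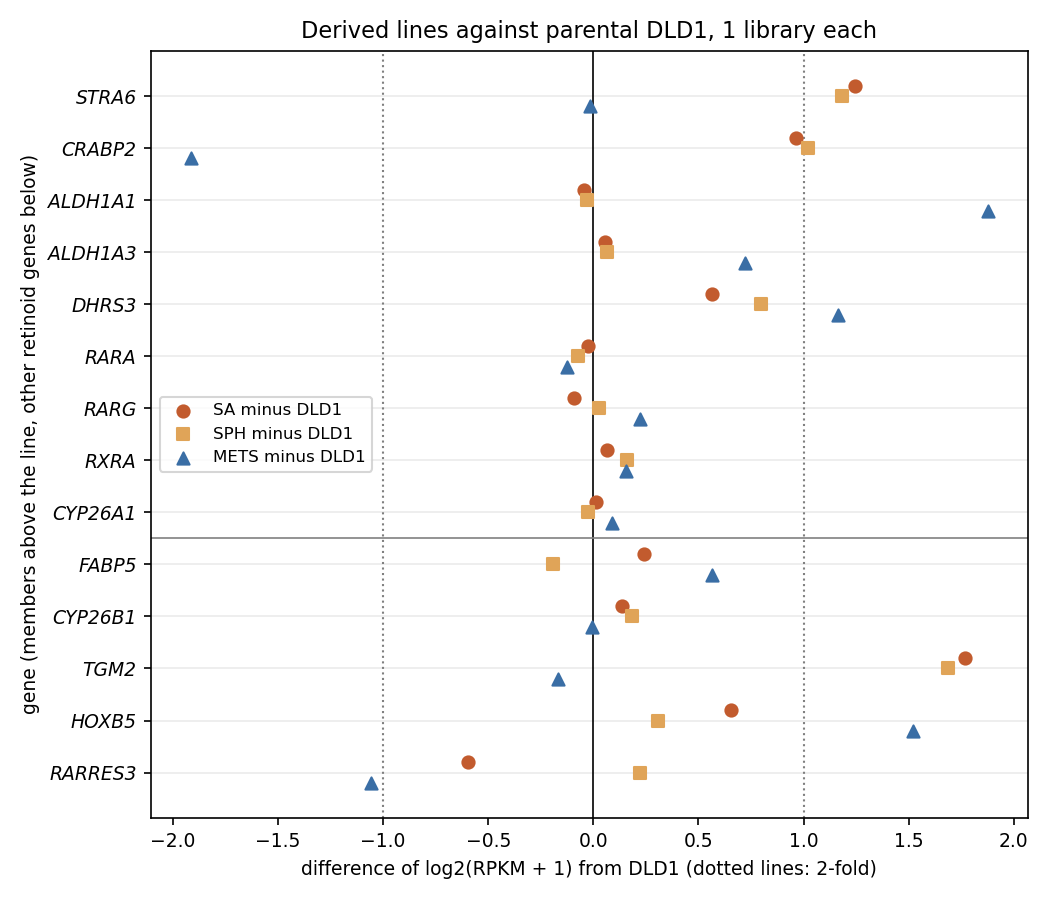
Difference in log2(RPKM + 1) from DLD1 (horizontal axis) for the 9 genes (above the line) and 5 other retinoid genes (below it), with circles for SA, squares for SPH and triangles for METS. Each point compares 1 library with 1, and dotted lines mark 2-fold. SA and SPH lie together for STRA6 (1.24 and 1.18) and TGM2 (1.77 and 1.69), and METS stands apart for ALDH1A1 (1.88) and CRABP2 (-1.91).

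Counted by the 2-fold rule, 1 of the 6 members that reached 1 RPKM in either library was past it in SA against DLD1 (STRA6, higher), where 0.677% of 11367 genes were. In SPH it was 2 of 7 (STRA6 and CRABP2, both higher), where 1.26% of 11446 genes were past the rule. In METS it was 3 of 7, with ALDH1A1 and DHRS3 higher and CRABP2 lower, where 1.42% of 11275 genes were. The 3 comparisons share the DLD1 library. The members were picked for such differences, so the counts are given beside these shares without being read against them. Of the 7 members measured at 1 RPKM in at least 2 libraries, STRA6 and CRABP2 had both mesenchymal values above both epithelial ones and none had both below, against 24.7% and 13.1% of 11262 genes. STRA6 was among the 7 only through SA and SPH, where it is high. Without SA 3 of the 7 did not overlap in either direction, where 65.6% of all genes did not, and without SPH 3 (61.7%). Without METS it was 6 of 7 (70.0% of all genes) and without DLD1 6 (77.3%). Of the other 2 members, ALDH1A1 had both mesenchymal values below both epithelial ones (0.00 and 0.01 against 2.78 and 0.03 RPKM, with few reads outside METS), and those of CYP26A1 overlapped.

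The other genes of the pathway, with related genes, were taken from 9 lists, 118 genes in all, and all 118 were in the table. All are called other retinoid genes here. The lists of RXR partner receptors, RAR coregulators and other aldehyde dehydrogenases reach beyond the pathway, and they hold 8, 12 and 12 of the genes tested. The test was between the classes named in the labels, SA and SPH against METS and DLD1. It was a limma-trend fit over all 11262 genes with 2 lines a class. Its p-values rest on the spread between different lines of a class, drawn towards a spread shared by genes of similar level. They do not measure the spread between replicate cultures. SA, SPH and METS all derive from DLD1, so the lines are not independent, and the fit takes no account of this. Of the 118 genes 65 reached 1 RPKM in at least 2 libraries and were tested. TGM2 rose in the mesenchymal lines, where 0.32% of all genes tested were called higher and 0.0355% lower. None fell at adjusted p 0.05, and 6 were higher and 4 lower at an unadjusted p under 0.05 (limma-trend), where 5.19% of all genes tested were higher and 3.45% lower. The median difference was 0.03 over the 65 genes, with 41 above 0, and 0.04 over all genes tested, with 6821 above 0. The lists were written with earlier results of these data known, among them that of TGM2, so they are no independent support for it.

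TGM2, a transglutaminase long used as a readout of retinoic acid, stood at 3.39 RPKM in SA and 3.16 in SPH, against 0.15 in METS and 0.29 in DLD1. Its class difference was 1.81 ± 0.13 (SE, adjusted p = 0.0092, limma-trend). TGM2 met the filter of 1 RPKM in 2 libraries only through SA and SPH, the lines where it is high. Its entry to the test thus rests on the difference that was tested, and the p-value is no independent support for it. The levels of TGM2 correspond to an estimated 1321 reads in SA, 1341 in SPH, 61 in METS and 126 in DLD1. The 95% intervals, which cover counting error only, were 0.116 to 0.194 RPKM in METS and 0.242 to 0.346 RPKM in DLD1 and did not overlap. TGM2 did not pass when the SA library (adjusted p = 0.11, limma-trend) or the SPH library (0.13) was left out, with 1 mesenchymal line then assumed to vary like the others, or with no filter on low genes (0.10).

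**Figure D3:**
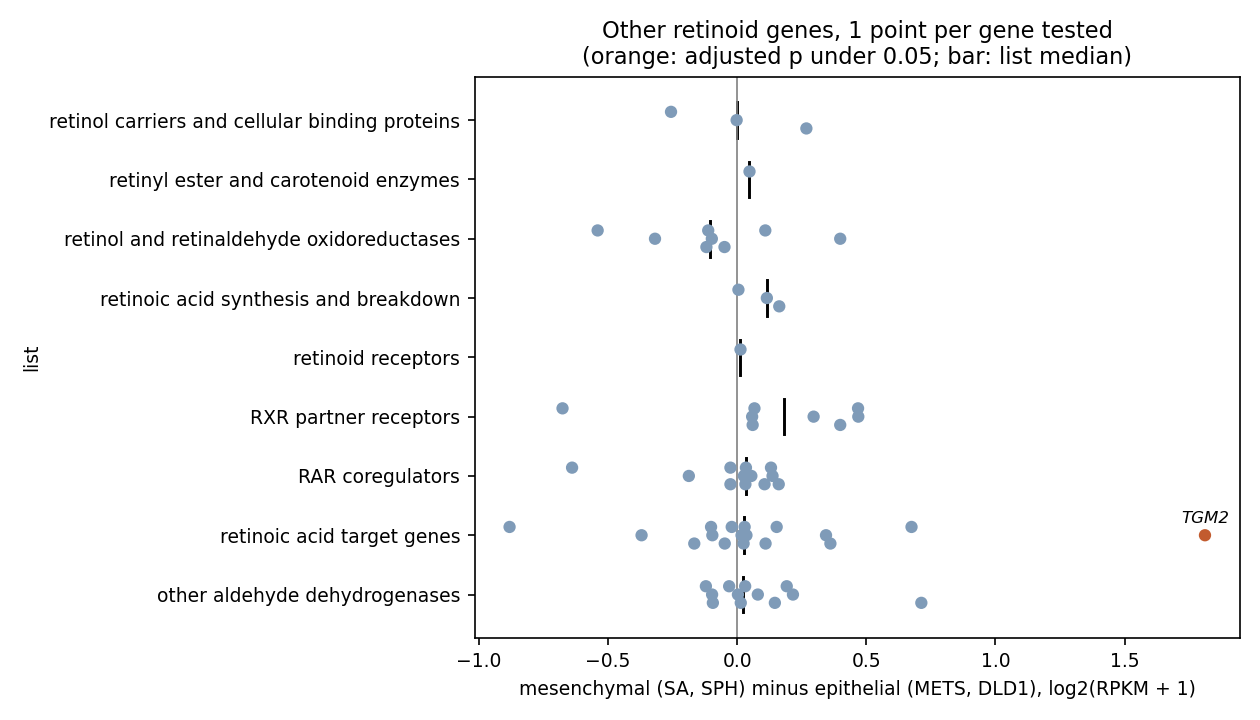
Class difference in log2(RPKM + 1), SA and SPH minus METS and DLD1 (horizontal axis), of the 65 tested retinoid genes other than the 9, by list (vertical axis). Each point is a gene, an orange point passed adjusted p 0.05 and black bars are list medians. TGM2 (1.81) lies far to the right, and most points lie near 0.

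Among the 10 other carriers and binding proteins listed 3 were tested and none passed, nor did any reach an unadjusted p under 0.05 (limma-trend). FABP5, a fatty acid-binding protein reported to carry retinoic acid to PPARD, stood at 4.48 RPKM in SA, 3.05 in SPH and 5.84 in METS, against 3.63 in DLD1, and it has processed pseudogenes that may share its reads. The ratio of CRABP2 to FABP5 in RPKM was 4.39 in SA, 6.71 in SPH and 0.310 in METS, against 2.64 in DLD1. METS was the only line in which FABP5 exceeded CRABP2 in RPKM, an order that also depends on gene lengths. CRABP1 is listed at 0 in all 4 lines, and RBP4 did not exceed 0.20 RPKM. SCARB1, a receptor for lipoproteins and carotenoids, stood between 7.34 and 7.81 RPKM, and RBP5 at 1.43 RPKM in SA, 1.42 in SPH and 1.08 in METS, against 0.95 in DLD1 (adjusted p = 0.61, limma-trend).

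**Figure D4:**
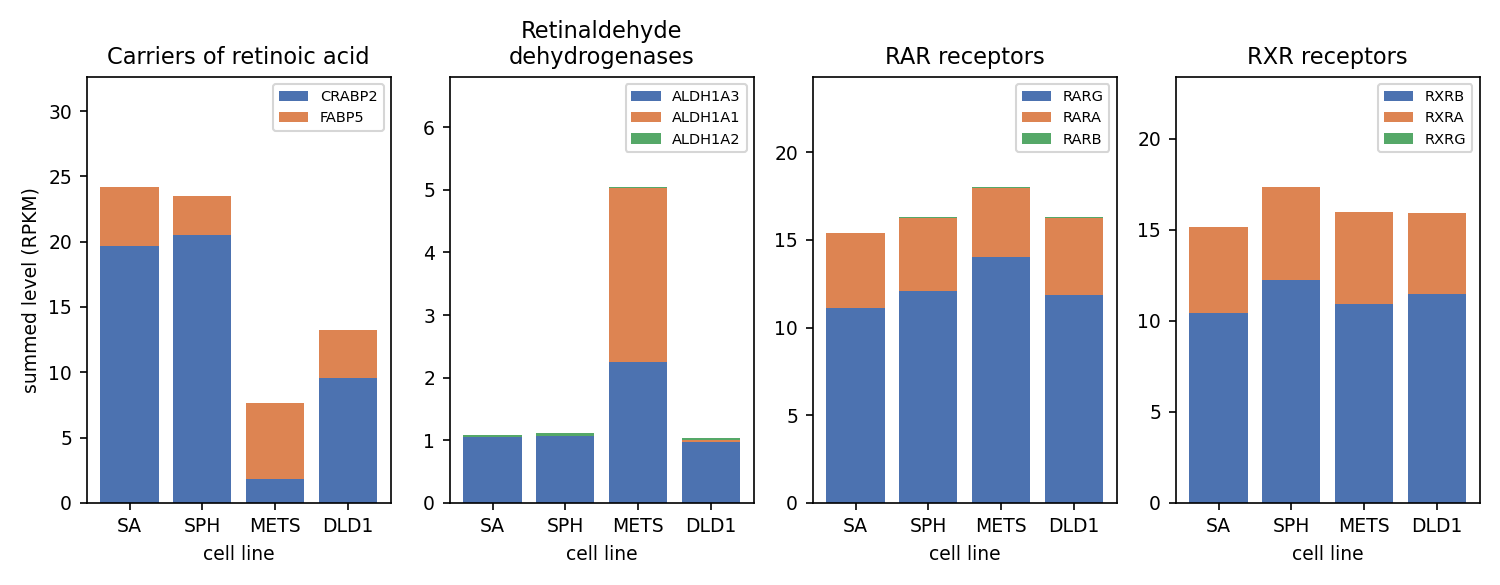
Summed level in RPKM (vertical axis, from 0) of carriers of retinoic acid, ALDH1A enzymes, RAR receptors and RXR receptors in SA, SPH, METS and DLD1 (horizontal axis, 1 library each), with colours for the genes. FABP5 exceeds CRABP2 in METS alone (5.84 against 1.81 RPKM), ALDH1A1 and ALDH1A3 sum to about 5 RPKM there (5.04 with ALDH1A2), and the receptor sums stay between 15.1 and 18.0 RPKM.

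Of 8 enzymes of retinyl esters and carotenoids only DGAT1 was tested, and it did not pass, nor did it reach an unadjusted p under 0.05 (limma-trend). LRAT, which stores retinol as esters, is listed at 0 in all lines, and DGAT1, which can also esterify retinol, stood at 28.1 RPKM in SA, 35.6 in SPH and 29.5 in METS, against 31.7 in DLD1. LIPE, a lipase, stayed between 0.57 and 0.83 RPKM and BCMO1, which cleaves carotene to retinaldehyde, between 0.06 and 0.37. Of 19 retinol and retinaldehyde oxidoreductases 8 were tested and none passed, nor did any reach an unadjusted p under 0.05 (limma-trend). Of the 8, 2 had a class difference above 0. The most abundant were ADH5 (18.5 to 23.6 RPKM over the 4 lines), RDH11 (15.6 to 17.7) and RDH14 (12.7 to 15.1). RDH10, the main retinol dehydrogenase of the mouse embryo, and AKR1C3 and SDR16C5 were named after their values were seen. RDH10 stood at 4.45 RPKM in SA, 3.59 in SPH and 8.31 in METS, against 4.68 in DLD1 (class difference -0.54 ± 0.24, SE, adjusted p = 0.62, limma-trend). SDR16C5, a retinol dehydrogenase, stood at 1.01 RPKM in SA, 1.23 in SPH and 2.43 in METS, against 1.03 in DLD1 (adjusted p = 0.83, limma-trend). AKR1C3, an aldo-keto reductase, stood at 1.53 RPKM in SA, 1.97 in SPH and 1.44 in METS, against 0.77 in DLD1 (adjusted p = 0.63, limma-trend). RDH10 and SDR16C5 were thus highest in METS, as were ALDH1A1 and ALDH1A3, and AKR1C3 was lowest in DLD1.

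Of 7 genes of retinoic acid synthesis and breakdown 3 were tested and none passed, with 0 under an unadjusted p of 0.05 (limma-trend). CYP2S1, a cytochrome P450, stood at 8.10 RPKM in SA, 8.99 in SPH and 4.91 in METS, against 12.1 in DLD1. Its level in METS was more than 2-fold lower than in DLD1 (log2 difference -1.15). CYP1B1 stood between 3.26 and 4.15 RPKM. Of 15 other aldehyde dehydrogenases 12 were tested and none passed, with 1 under an unadjusted p of 0.05 (limma-trend) and a median difference of 0.02. ALDH2 (44.0 to 58.5 RPKM), ALDH1B1 (45.8 to 48.2) and ALDH18A1 (39.0 to 46.1) were the most abundant, and all were far above ALDH1A1 and ALDH1A3 per length in every line. ALDH3B1 stood at 3.09 RPKM in SA, 5.68 in SPH and 2.30 in METS, against 2.08 in DLD1, past 2-fold in SPH alone (log2 difference 1.12).

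Among 30 target genes of retinoic acid 17 were tested, and TGM2 alone passed. Their median class difference was 0.03, with 10 of 17 above 0 and 4 at an unadjusted p under 0.05 (limma-trend), 2 of them higher and 2 lower, against 5.19% and 3.45% of all genes tested. HOXB5, a Hox gene that retinoic acid induces in embryos, stood at 0.92 RPKM in SA, 0.51 in SPH and 2.50 in METS, against 0.22 in DLD1 (log2 difference 1.52 in METS), and was not tested. RARRES3, a retinoid-responsive phospholipase gene, stood at 0.63 RPKM in SA, 1.87 in SPH and 0.18 in METS, against 1.46 in DLD1 (log2 difference -1.06 in METS). HOXB5 was highest in METS and RARRES3 lowest there, so 2 genes listed as targets lay on opposite sides of DLD1. GPRC5A, an orphan receptor first found as induced by retinoic acid, stood at 20.02 RPKM in SA, 24.4 in SPH and 49.3 in METS, against 35.0 in DLD1 (class difference -0.88 ± 0.19, SE, adjusted p = 0.28, limma-trend). FOXA1 stood at 32.0, 31.1, 43.4 and 38.9 RPKM in SA, SPH, METS and DLD1, and BHLHE40 at 5.31, 10.6, 8.22 and 6.67 RPKM in the same order. Neither passed.

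None of the 8 tested receptors that pair with RXR and none of the 12 tested coregulators passed, with 4 and 1 under an unadjusted p of 0.05 (limma-trend), where 5.19% of all genes tested were higher and 3.45% lower. The 4 receptors, named after their values were seen, were PPARG, lower in the mesenchymal lines, and PPARA, NR1H3 and THRA, higher there. PPARG, a receptor of fatty acid ligands, stood at 4.06 RPKM in SA, 2.75 in SPH and 6.10 in METS, against 5.82 in DLD1 (class difference -0.68 ± 0.16, SE, adjusted p = 0.34, limma-trend). The class differences of the other 3 were 0.40 for PPARA, 0.47 for NR1H3 and 0.47 for THRA, with adjusted p of 0.49 to 0.53 (limma-trend). The median class difference was 0.18 for the receptors, with 7 of 8 above 0, and 0.03 for the coregulators, with 8 of 12 above 0. VDR, the vitamin D receptor, stood at 11.7 RPKM in SA, 11.3 in SPH and 7.30 in METS, against 11.4 in DLD1. NR1H2 lay between 8.39 and 10.5 RPKM and PPARD, the partner linked to FABP5, between 6.63 and 8.57. Of the coregulators, TBL1XR1 lay between 16.1 and 19.8 RPKM, the histone deacetylase HDAC3 between 13.5 and 14.7, and the Mediator subunit MED1 between 8.10 and 9.31. By the 2-fold rule 1 of the 65 other retinoid genes entering was past it in SA (TGM2) and 2 of 65 in SPH (TGM2 and ALDH3B1). In METS it was 3 of 64 (HOXB5 higher, CYP2S1 and RARRES3 lower). Of all genes entering, 0.677% were past the rule in SA, 1.26% in SPH and 1.42% in METS. The counts were not tested against these shares.

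For the 3 members with the widest range in log2(RPKM + 1), the genes with the nearest centred profile over the 4 libraries were found, as a description. Nearest to STRA6 were CLDN11, DHRS2 and CHST11, with root mean square differences of 0.0185 to 0.0205 on the log2 scale. CLDN11 stood at 1.56 RPKM in SA, 1.38 in SPH and 0.07 in METS, against 0.06 in DLD1. Nearest to CRABP2 were UGT1A6, TNC and B3GNT9, but at a larger distance of 0.227 to 0.358. TNC stood at 6.61 RPKM in SA, 7.12 in SPH and 0.08 in METS, against 5.55 in DLD1, so it shared the low level in METS and had a smaller excess in SA and SPH. Nearest to ALDH1A1 were CDKN1C, MEGT1 and CLIC3 (0.109 to 0.154), among genes of at least 1 RPKM in 2 libraries. That filter leaves out genes that, like ALDH1A1 itself, reach 1 RPKM in METS alone. CDKN1C stood at 2.46 RPKM in SA, 2.91 in SPH and 13.07 in METS, against 2.27 in DLD1. It was thus present in every line, unlike ALDH1A1, as were MEGT1 and CLIC3.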

How the data were processed

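Total RNA of 4 lines was sequenced, 1 library each. The authors deposited 1 table of RPKM values with 2 decimals. That unit was read from the values, whose column sums differ between lines (275639 to 284919) and whose products with gene length in kb sum to 913210 to 924096 over 34023 genes. The build is hg19, per the submitters' processing notes. The aligner, counting tool, annotation and strandedness were not given in the sources used here.

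Reads per RPKM were estimated as the period of value times exon length (GENCODE 29) over genes of 200 to 700 bases and under 0.6 RPKM, and 2 other length windows gave 48.5 to 48.6 in SA, 52.7 to 53.0 in SPH, 50.2 to 50.5 in METS and 53.8 to 53.9 in DLD1. Genes entered a 2-library comparison where the higher value reached 1 RPKM. The class test was limma-trend (limma 3.58.1, R 4.3.3) on log2(RPKM + 1), adjusted by Benjamini-Hochberg over the 11262 genes that reached 1 RPKM in 2 or more libraries. The fit was tested on simulated data. The 9 genes and the lists were chosen with earlier results of these data known. A few listed genes are not reported here.

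Named were all 9 genes, every other listed gene that passed or was 2-fold apart, the 3 most abundant of each list, and the 3 nearest profiles of 3 members. Named outside this rule, after their values were seen, were CRABP1, RBP4, LRAT, ALDH1A2, RDH10, AKR1C3, SDR16C5, PPARG, PPARA, NR1H3 and THRA. Alternatives were pseudocounts of 0.1 and 5, filters of 0 and 5 RPKM, scaling by median-of-ratios factors (0.9764 to 1.015), 1.5-fold and 4-fold rules, limma with no trend, and each library left out in turn. Tables were handled with Python 3.11.15, pandas 2.3.3 and scipy 1.17.1.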

Additional observations from a re-analysis of the deposited data

Results flagged for a closer look

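CRABP2 was singled out because both mesenchymal lines lay above DLD1 and METS lay below it, each by at least 1.5-fold. Its log2 difference from DLD1 was -1.91 in METS, against 0.97 in SA and 1.02 in SPH. The difference between these effects was not tested, and all 3 rest on the same DLD1 library.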

How the results depend on the processing

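In the class test 40 genes passed over all genes and 1 of the other retinoid genes, TGM2 (limma-trend). TGM2 met the filter on low genes through SA and SPH alone, where it is high. With a pseudocount of 0.1 26 genes passed, with a minimum of 5 RPKM 5 genes of all and 0 retinoid genes (467 and 3 at an unadjusted p under 0.05), and with no filter 0 and 0 (2208 and 8 at an unadjusted p under 0.05). A minimum of 5 RPKM removes TGM2. Leaving out a library gave 5 to 305 genes of all and 0 to 3 retinoid genes, the most without DLD1 (305, and GPRC5A, RDH10 and TGM2) and the fewest without SA (5 and 0) and SPH (6 and 0).

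Of the 9 genes, 6, 7 and 7 entered the comparisons of SA, SPH and METS with DLD1. Among those entering, 1, 2 and 3 were past 2-fold, where 0.677%, 1.26% and 1.42% of all genes entering were. The share over all genes was not computed for the other settings of this rule, so those counts are a description only. With a pseudocount of 0.1 the counts were 2, 3 and 4. With a pseudocount of 5 the counts were 0, 0 and 1, and with a 4-fold rule 0, 0 and 0. With a minimum of 5 RPKM they were 0 of 2, 1 of 3 and 1 of 3. A 1.5-fold rule gave 2, 3 and 4, and median-of-ratios factors gave 1 in SPH, where CRABP2 fell short. The other retinoid genes counted 1 of 65, 2 of 65 and 3 of 64, beside the same shares of 0.677%, 1.26% and 1.42%. With a pseudocount of 0.1 they counted 3, 6 and 6, with 5 they counted 0, 0 and 0, with a minimum of 5 RPKM 0, 1 and 1, with a 4-fold rule 0, 0 and 0, and with a 1.5-fold rule 4, 7 and 11. Of the 7 members that reached 1 RPKM in 2 libraries, 2 had classes that did not overlap, both higher in the mesenchymal lines. Over all genes tested, 24.7% lay higher without overlap and 13.1% lower. With a library left out, 3 to 6 of the 7 members did not overlap, where the share over all genes tested was 61.7% to 77.3%.

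Of 108 recomputed log2 differences of the 9 genes under 2 pseudocounts and median-of-ratios factors, 0 past 2-fold changed sign, and 34 moved by more than the counting error or the spread within a class. No paired analysis was possible because the labels number no replicates. Values under about 0.1 RPKM rest on few reads, and differences between libraries cannot be told apart from differences between cultures.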
